A study of Sus scrofa with 12 samples.

Results

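KMO, BCAT1, ASS1 and ODC1 are enzymes that act on tryptophan, branched-chain amino acids, citrulline and ornithine. They were followed here in the endometrium of 12 sows on Day 14 after insemination, as 4 genes of the 6765 named on the array, read by 6 probe sets of 23999. KMO and ASS1 had 1 probe set each, and BCAT1 and ODC1 had 2 each. Members were all probe sets for which the platform annotation gave one of these symbols alone. The 4 genes were picked because they differed between pregnant and non-pregnant sows, so their pregnancy differences are described without a test, and tests were kept for breed and for the dependence on breed. All 6 probe sets, and 7.88% of all probe sets, passed an adjusted p of 0.05 for pregnancy in limma, which restates the choice.

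The 12 sows fell into 4 groups of 3, namely pregnant Yorkshire (sows 2, 4 and 12), pregnant Landrace (sows 6, 8 and 10), non-pregnant Yorkshire (sows 1, 3 and 11) and non-pregnant Landrace (sows 5, 7 and 9). Non-pregnant sows had been inseminated too, with inactivated semen. The tissue held the epithelium, the lamina propria and the submucosa of both flushed horns without the muscle layer, with 1 Affymetrix array per sow, and the ages of the sows were not given. Pieces came from 3 positions along each horn, where attachment sites were visible in pregnant sows and at matching places in the others, and whether pieces were pooled before RNA extraction was not stated. Values are log2 expression, so a difference of 1 is a doubling, and all arrays were scaled to nearly the same distribution, with lower quartiles of 4.58 to 4.71 and medians of 6.25 to 6.30.

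As background, each of the 4 enzymes stands at a branch of amino acid metabolism. KMO, kynurenine 3-monooxygenase, is a mitochondrial enzyme that hydroxylates kynurenine, the product of tryptophan breakdown, and so directs it towards quinolinic acid and NAD. BCAT1 is the cytosolic aminotransferase that reversibly moves the amino group of leucine, isoleucine and valine to 2-oxoglutarate and yields glutamate. ASS1, argininosuccinate synthase, joins citrulline and aspartate on the route to arginine, the substrate of nitric oxide synthases and arginases. ODC1, ornithine decarboxylase, forms putrescine and is a rate-limiting enzyme of polyamine synthesis. Arginine and polyamines are known for their part in the growth of the pig conceptus, which elongates in the uterine lumen before it attaches.

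Some arrays stood apart from their group. The mean over the 7 measured macrophage and dendritic cell markers, of 11 listed, was 8.45 in sow 7 (non-pregnant Landrace), whereas the remaining 5 non-pregnant animals had 6.36 to 6.45 and the pregnant ones 6.61 to 7.03. Of the 7 markers, 1 had a mean below the lower quartile of every array. Markers of T and NK lymphocytes, 7 of 10 measured, had a mean of 7.09 in that sow. It was 5.54 to 5.93 in the remaining 5 non-pregnant sows and 5.78 to 6.44 in the pregnant sows. Over all probe sets, pregnant sow 12 correlated most with non-pregnant sow 11, and pregnant sow 8 with non-pregnant sow 5; the remaining 4 pregnant sows correlated most with a pregnant sow. Of 17 listed trophoblast markers 13 were measured, 2 of them below the lower quartile, and their mean was 7.82 in pregnant sow 10 and 6.37 in pregnant sow 6. It was 5.73 to 5.87 in the remaining 4 pregnant animals and 5.54 to 5.98 in those not pregnant. IFNG, which the pig trophoblast secretes, read 12.65 in sow 10, 8.21 in sow 6 and 3.61 to 4.41 in the other 10. Of 10 endothelial markers, all measured, 7 rose with pregnancy and none fell (limma, adjusted p under 0.05). Over all genes 4.58% rose and 7.48% fell. The endothelial list mean was 7.10 to 7.66 in pregnant and 6.49 to 7.02 in non-pregnant sows. The neutrophil list mean (4 of 7) was 5.36 to 8.26 in pregnant sows, 6.40 in sow 7 and 4.21 to 4.57 in the remaining 5 non-pregnant sows. In pregnant against non-pregnant sows the stromal one (8 of 10) was 9.75 to 10.36 against 9.49 to 10.06. The epithelial one (9 of 10) was 9.62 to 10.37 against 10.02 to 10.31, and the smooth muscle one (6 of 8) 8.29 to 9.13 against 8.11 to 8.71. By the same rule 1 neutrophil, 4 stromal, 1 epithelial and 1 smooth muscle marker rose. Falls were called for 1 stromal, 2 epithelial and 1 trophoblast marker, and no macrophage, lymphocyte or erythrocyte marker passed. The part of these shifts in the values of the 4 enzymes was not tested except where stated, and in whole tissue fewer cells of a type and less RNA per cell cannot be told apart.

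Pregnant endometrium had higher KMO values. It read 9.18, 8.16 and 8.93 in pregnant Yorkshire sows 2, 4 and 12, and 9.85, 9.50 and 10.51 in pregnant Landrace sows 6, 8 and 10. In non-pregnant sows it read 6.14, 6.64 and 6.36 in Yorkshire sows 1, 3 and 11, and 7.49, 8.82 and 6.13 in Landrace sows 5, 7 and 9. The groups overlapped only through non-pregnant sow 7, whose KMO value lay above that of pregnant sow 4 and which also had the highest macrophage and lymphocyte marker means. The means were 9.36 ± 0.80 and 6.93 ± 1.06 (SD, n = 6 each), a difference of 2.42 ± 0.37 (SE) or 5.37-fold. Without sow 7 the difference was 2.72. After subtraction of the group means, KMO followed the macrophage list mean with r = 0.74 and the lymphocyte list mean with r = 0.70 over the 12 sows, a description in which sow 7 is the extreme point. Without sow 7, a choice made after its value was seen, no non-pregnant sow reached the KMO value of any pregnant sow. That separation is no support, because pregnancy was used to choose the genes. The part of macrophages and lymphocytes in the KMO values was not tested.

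BCAT1 was lower in pregnant sows, and most of all in pregnant Landrace sows. Its probe set Ssc.12565.1.A1_at read 5.25, 5.50 and 5.22 in pregnant Landrace sows 6, 8 and 10, and 7.20, 7.63 and 8.60 in pregnant Yorkshire sows 2, 4 and 12. In non-pregnant sows it read 9.15, 8.89 and 9.06 in Yorkshire sows 1, 3 and 11 and 9.02, 7.96 and 9.05 in Landrace sows 5, 7 and 9. Pregnant sow 12 thus read close to the non-pregnant sows and above sow 7, and those were the only values that overlapped. The means of pregnant and non-pregnant sows were 6.57 ± 1.44 and 8.85 ± 0.45 (SD, n = 6 each), and the difference was -2.29 ± 0.38 (SE). The second probe set, Ssc.27431.1.A1_at, gave 4.57, 5.75 and 5.70 in the pregnant Landrace sows, 7.12, 7.46 and 8.43 in the pregnant Yorkshire sows, 8.93, 8.80 and 8.88 in the non-pregnant Yorkshire sows and 8.53, 7.54 and 8.73 in the non-pregnant Landrace sows, each in the order of sows given above. Its difference was -2.06 ± 0.37 (SE). Sow 6, at 4.57, lay below the lower quartile of its array, a range where background shortens differences. Both probe sets gave the same order of the 4 group means, and with the group means subtracted they correlated at r = 0.84 over the 12 sows. Sow 8, with an IFNG value of 4.26 and a trophoblast list mean of 5.85, had BCAT1 values of 5.50 and 5.75. Sow 10, with a trophoblast list mean of 7.82, had 5.22 and 5.70, and sow 6, with 6.37, had 5.25 and 4.57. With the group means subtracted, BCAT1 Ssc.12565.1.A1_at ran against the neutrophil list mean, with r = -0.89 over the 12 sows. It also ran against the lymphocyte (r = -0.65) and macrophage (r = -0.62) list means. The measured neutrophil markers were S100A8, S100A9, S100A12 and ELANE, and S100A9 spanned the most, from 3.16 to 12.79. S100A9 was 9.35 in sow 7, whose non-pregnant mates reached at most 3.91. In pregnant sow 12 S100A9 was 7.72, while every remaining pregnant sow had at least 12.06. ELANE stayed within 5.02 to 5.53, so the list mean mainly carries the S100 genes and may not measure neutrophils. Among pregnant Landrace sows the order was not inverse. Sow 8 had both the highest neutrophil list mean (7.55) and the highest Ssc.12565.1.A1_at value (5.50). The correlation without sows 7 and 12 was not tested. The part of neutrophils, lymphocytes, macrophages and conceptus material in the BCAT1 values was not tested.

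ASS1 was higher in pregnant sows and, within each pregnancy group, higher in Landrace sows. It read 6.32, 6.71 and 6.23 in pregnant Yorkshire sows 2, 4 and 12 and 7.48, 6.81 and 7.16 in pregnant Landrace sows 6, 8 and 10. Non-pregnant Yorkshire sows 1, 3 and 11 had 5.76, 5.48 and 5.60, and non-pregnant Landrace sows 5, 7 and 9 had 6.32, 6.37 and 6.05. The pregnant and non-pregnant ranges overlapped, because non-pregnant Landrace sows 5 and 7 exceeded pregnant Yorkshire sows 2 and 12. The means were 6.78 ± 0.48 and 5.93 ± 0.37 (SD, n = 6 each), a difference of 0.86 ± 0.12 (SE) or 1.81-fold. In 5 of the 12 sows ASS1 lay below the median of all probe sets, but in none below the lower quartile. With the group means subtracted, ASS1 had r = 0.63 with the endothelial list mean over the 12 sows, and the part of endothelium in its values was not tested.

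ODC1 was lower in pregnant sows on both of its probe sets, by different amounts. The probe set Ssc.6356.1.S1_at read 9.43, 9.26 and 9.67 in pregnant Yorkshire sows 2, 4 and 12 and 8.37, 9.45 and 9.15 in pregnant Landrace sows 6, 8 and 10. It read 10.50, 10.82 and 10.31 in non-pregnant Yorkshire sows 1, 3 and 11 and 9.76, 10.58 and 10.31 in non-pregnant Landrace sows 5, 7 and 9. Every pregnant sow lay below every non-pregnant sow, with 0.092 between the nearest, sows 12 and 5. This was the only one of the 6 probe sets without overlap, and over all 23999 probe sets 2.70% had no overlap, which is no support here because pregnancy was used to choose the genes. The difference was -1.16 ± 0.19 (SE). The other probe set, Ssc.28428.1.S1_at, read 6.25 to 6.68 in pregnant sows, with a median of 6.33, and 6.61 to 7.33 in non-pregnant sows, with a median of 6.88. Its difference was -0.52 ± 0.12 (SE), and pregnant sow 8 lay above non-pregnant sow 5. With the group means subtracted both ODC1 probe sets correlated at r = 0.82, but pregnant sow 12 was the highest of the 6 pregnant sows on the first and among the lowest on the second. With the group means subtracted, Ssc.6356.1.S1_at had r = -0.62 with the endothelial list mean, whose part was not tested.

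**Figure D1:**
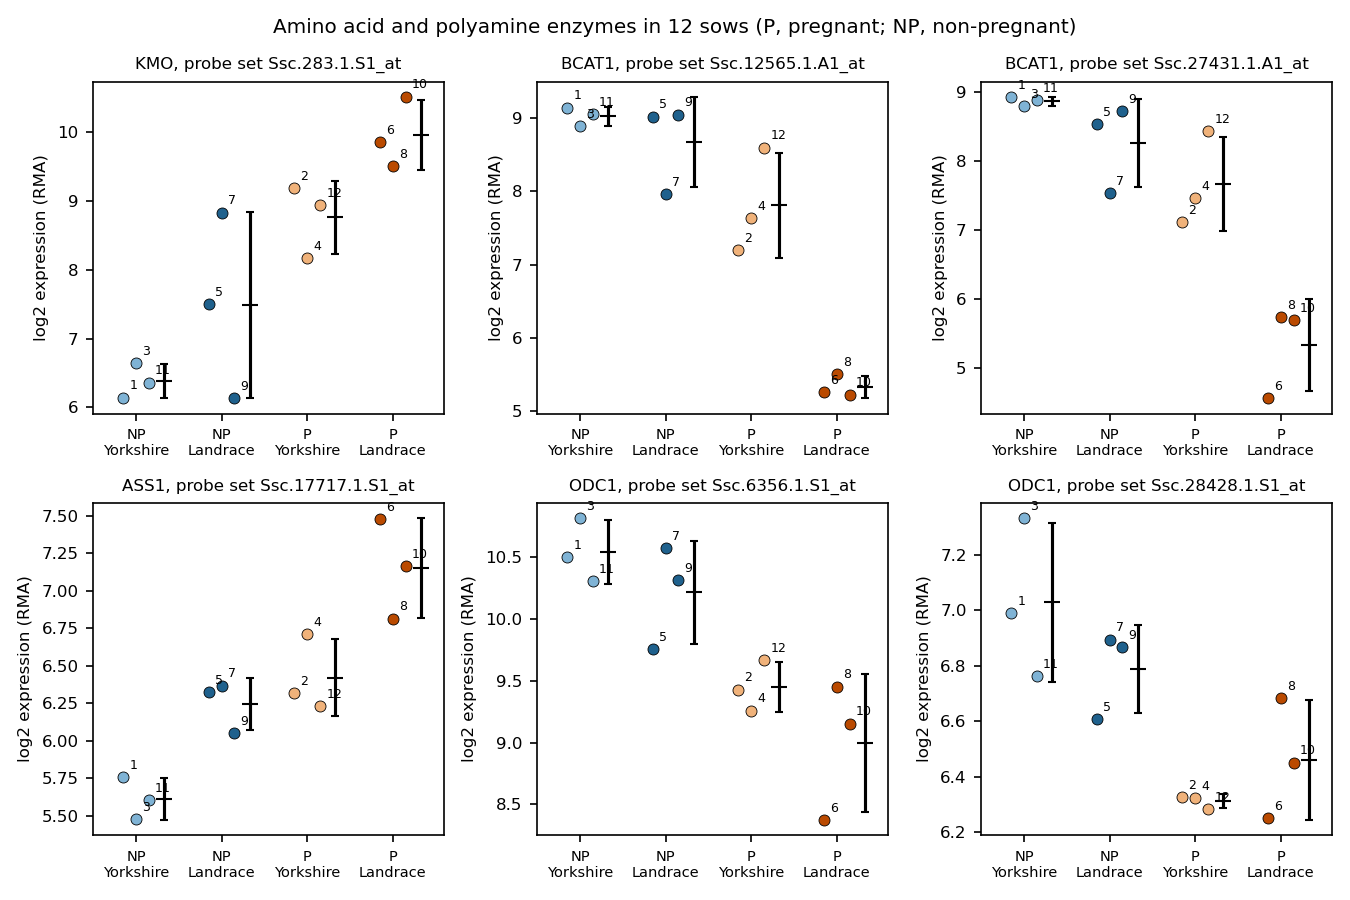
Log2 expression (vertical axis, a separate range in each panel) of the 6 probe sets in every sow, by pregnancy and breed. Points are sows with their numbers, and the bar beside each group is its mean ± SD (n = 3). Pregnant Landrace sows hold the highest KMO and ASS1 values and the lowest BCAT1 values, and ODC1 probe set Ssc.6356.1.S1_at shows no overlap between pregnant and non-pregnant sows.

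Breed was the first contrast that had not been used to choose the genes. Landrace minus Yorkshire was fitted over all 12 sows with pregnancy as a term, with limma and Benjamini-Hochberg adjustment over all probe sets, of which 5.15% passed an adjusted p of 0.05. Of the 6 probe sets 2 passed, that of ASS1 and 1 of BCAT1. ASS1 rose by 0.68 ± 0.12 (SE) on the log2 scale from Yorkshire to Landrace, or 1.61-fold (limma adjusted p = 0.00802). All 3 Landrace sows lay above all 3 Yorkshire sows among the pregnant and again among the non-pregnant sows, a separation within both pregnancy groups that 5.72% of all probe sets had in one direction or the other. The ASS1 call held whichever of the 12 sows was left out (adjusted p of 0.00603 to 0.0229), and ended when the pregnancy term was dropped (adjusted p = 0.210).

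BCAT1 was lower in Landrace sows, with a limma adjusted p of 0.0402 for Ssc.27431.1.A1_at (log2 difference -1.47 ± 0.37, SE) and of 0.0543 for Ssc.12565.1.A1_at (-1.42 ± 0.38). The call of Ssc.27431.1.A1_at ended in 10 of the 12 fits that left out 1 sow (adjusted p up to 0.0833). Ssc.12565.1.A1_at passed without non-pregnant sow 5 or 9 (0.0436 and 0.0374). KMO was higher in Landrace sows by 1.15, with a 95% interval of 0.35 to 1.95, and did not pass (adjusted p = 0.0955), except without non-pregnant sow 9, the lowest of its group (1.45, adjusted p = 0.0181). The ODC1 differences were -0.39 (interval -0.80 to 0.02, adjusted p = 0.267) and -0.05 (interval -0.30 to 0.21, adjusted p = 0.876). A sign of RNA integrity moved with breed as well: the GAPDH control probe sets at the 3' end exceeded those at the 5' end by a mean of 0.379 to 0.538 in Landrace and of 0.545 to 0.773 in Yorkshire sows (exact permutation p = 0.00216, two-sided, n = 6 each). Its part in the breed differences was not tested.

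The dependence of the pregnancy difference on breed was the second contrast. None of the 23999 probe sets passed for this interaction (limma, 0.00% called, with 963 at an unadjusted p under 0.05, or 4.01%), and so none of the 6 did. For BCAT1 the pregnancy difference was -3.35 in Landrace and -1.22 in Yorkshire sows on Ssc.12565.1.A1_at, that is 10.2-fold and 2.33-fold lower. The difference between the breeds was -2.13 (95% interval -3.19 to -1.07), with an unadjusted p of 0.00102 and an adjusted p of 0.919, and 23 probe sets had a smaller p. On Ssc.27431.1.A1_at the pregnancy differences were -2.93 and -1.20, and their difference was -1.73 (interval -2.98 to -0.48, adjusted p = 1.00). With non-pregnant sow 7 and pregnant sow 12 left out together, a choice made after their values were seen, the interaction of Ssc.12565.1.A1_at passed (-2.09, adjusted p = 0.0112) and that of Ssc.27431.1.A1_at did not (-1.71, adjusted p = 0.272). Sow 7 had the lowest BCAT1 value of its group and sow 12 the highest, so leaving them out lowers the spread within groups by construction.

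Among pregnant sows alone, a contrast added after the data were seen, BCAT1 fell from Yorkshire to Landrace by 2.49 ± 0.34 (SE, limma adjusted p = 0.0122) on Ssc.12565.1.A1_at and by 2.33 ± 0.40 (adjusted p = 0.0295) on Ssc.27431.1.A1_at. Over all probe sets 0.733% passed for this contrast. Among non-pregnant sows the same probe sets differed by -0.36 and -0.60 (adjusted p = 0.709 and 0.556, with 1.04% of all probe sets called). The call of Ssc.12565.1.A1_at in pregnant sows ended only without pregnant sow 10 (adjusted p = 0.0562), and that of Ssc.27431.1.A1_at without any 1 of sows 3, 4, 6, 10 and 12 (adjusted p up to 0.0825).

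For the other enzymes no dependence on breed was called. KMO differed by 2.47 in Landrace and 2.38 in Yorkshire sows (difference 0.09, 95% interval -1.59 to 1.77), and this interval is wide. ASS1 differed by 0.91 and 0.81 (difference 0.10, interval -0.46 to 0.65). ODC1 differed by -1.22 and -1.09 on Ssc.6356.1.S1_at (difference -0.13, interval -0.98 to 0.73) and by -0.33 and -0.72 on Ssc.28428.1.S1_at (difference 0.39, interval -0.09 to 0.86). Each of these interactions had an adjusted p of 1.00 with limma.

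**Figure D2:**
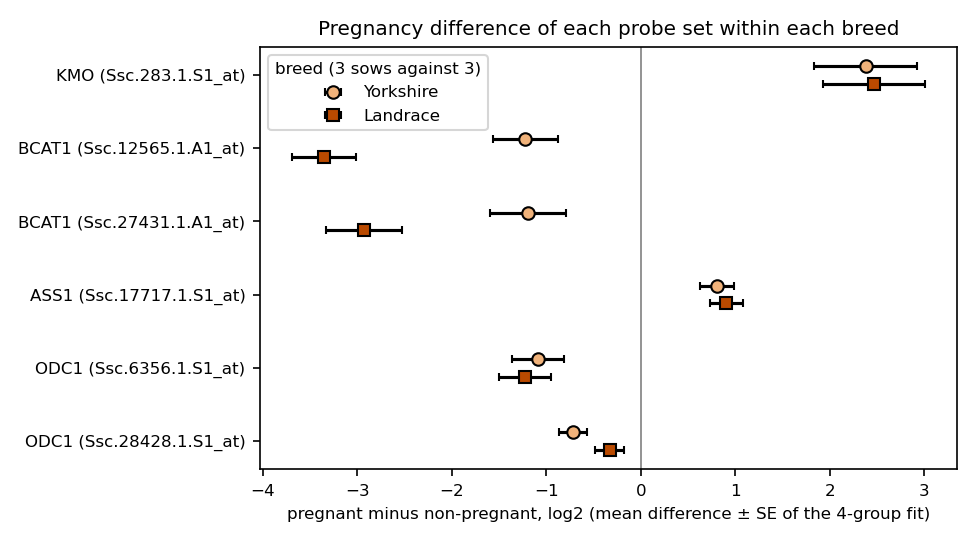
Pregnant minus non-pregnant log2 difference (horizontal axis) of each probe set within Yorkshire and Landrace sows, 3 against 3, with bars of ± 1 SE from the fit of 4 groups. The 2 BCAT1 probe sets lie near -1.2 in Yorkshire and between -3.35 and -2.93 in Landrace sows, and the marks of KMO, ASS1 and the first ODC1 probe set lie within 1 SE of each other.

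Within groups the enzymes did not all vary together. With the 4 group means subtracted, ASS1 and ODC1 Ssc.6356.1.S1_at ran against each other (r = -0.69 over the 12 sows), as did KMO and BCAT1 Ssc.12565.1.A1_at (r = -0.56), while KMO had r = 0.16 with ASS1 and 0.22 with ODC1. These sows share an array platform and a scaling, and the 12 residuals carry 8 degrees of freedom, so the correlations only describe these arrays.

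Other genes of the same pathways were read from 5 lists of 123 names, of which 66 had a probe set. Each gene was represented by its brightest probe set, and pregnancy was tested over all probe sets with breed as a term. Of the 66 genes 9 fell, 0 rose and 57 did not pass (limma, adjusted p under 0.05); over all 6765 genes 12.1% passed, 7.48% as falls and 4.58% as rises. The median log2 difference was -0.13 over the 66 and -0.03 over all genes.

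Of 20 measured genes of arginine, urea cycle, proline and nitric oxide metabolism 6 fell and none rose, and their median difference was -0.13. The mitochondrial arginase ARG2, which splits arginine into ornithine and urea, fell by 1.48 ± 0.32 (SE, limma adjusted p = 0.0187), from a median of 7.83 (6.82 to 8.06) in non-pregnant to 6.51 (5.07 to 6.87) in pregnant sows, with an overlap between non-pregnant sow 1 and pregnant sows 2 and 4. Of its other 2 probe sets 1 fell too (-0.75, adjusted p = 0.0177) and 1 did not pass (-0.12, adjusted p = 0.266). OAT, which links ornithine to proline and glutamate, fell by 0.73 ± 0.13 (adjusted p = 0.00883), from 9.27 to 10.09 in non-pregnant to 8.54 to 9.24 in pregnant sows without overlap.

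ALDH18A1, which starts proline synthesis from glutamate, fell by 0.36 (limma adjusted p = 0.0404), and PYCR1 and PYCR3, which complete it, fell by 0.45 and 0.51 (adjusted p = 0.0181 and 0.0217). GOT1, the cytosolic aspartate aminotransferase, fell by 1.28 ± 0.27 (SE, adjusted p = 0.0164), and pregnant sow 12, at 9.64, stayed within the non-pregnant range. The ALDH18A1 call ended in 8 and the PYCR3 call in 4 of the 12 fits that left out 1 sow (adjusted p up to 0.0931 and 0.0561), and those of ARG2, OAT, PYCR1 and GOT1 in none. Without breed in the fit the GOT1 and PYCR1 calls ended (adjusted p = 0.0965 and 0.0953), and that of ALDH18A1 ended after cyclic loess (0.0561). GOT1 and PYCR1 also fell from Yorkshire to Landrace (-1.15 and -0.39, adjusted p = 0.0303 and 0.0382).

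The direct partners of ASS1 were not called. ASL, which releases arginine from the product of ASS1, differed by -0.16 (limma adjusted p = 0.553). The nitric oxide synthases NOS2 and NOS3 differed by -0.01 and 0.24 (adjusted p = 0.974 and 0.126). ARG1, the arginase known from liver and myeloid cells, read 5.92 in sow 7 and 2.77 to 3.25 in the remaining 11, below the lower quartile of their arrays.

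In the polyamine pathway 2 of 14 measured genes fell with ODC1 set aside, and the median difference was -0.22. SMS, spermine synthase, fell by 0.79 ± 0.20 (SE, limma adjusted p = 0.0338). SMS read 8.33 to 8.81 in 5 pregnant sows and 9.53 in pregnant sow 8, against 9.02 to 9.99 in non-pregnant sows. Its call ended in 9 of the 12 fits that left out 1 sow (adjusted p up to 0.0788). MAT2A, which makes S-adenosylmethionine, the source of the aminopropyl groups, fell by 0.52 ± 0.11 (adjusted p = 0.0151) and stayed called in all 12. The regulators and neighbours of ODC1 did not pass: OAZ1, the antizyme that binds ODC1, differed by -0.19 (adjusted p = 0.0911, with a second probe set at 0.68), AZIN1, the antizyme inhibitor, by -0.40 (0.232), SRM, spermidine synthase, by -0.26 (0.337), and SAT1, which acetylates polyamines for export or breakdown, by -0.04 (0.747). AMD1, the S-adenosylmethionine decarboxylase, was not analysed here.

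Around BCAT1, 1 of 16 measured genes of branched-chain amino acid breakdown fell, HSD17B10, a mitochondrial dehydrogenase of the isoleucine route (-0.43 ± 0.10, SE, limma adjusted p = 0.0251, no overlap between pregnant and non-pregnant sows). This call ended in 6 of the 12 fits that left out 1 sow (adjusted p up to 0.063). BCAT2, the mitochondrial aminotransferase of the same reaction, differed by -0.04 ± 0.10 (adjusted p = 0.847) and read 6.56 to 6.91 in pregnant and 6.47 to 7.01 in non-pregnant sows. The list median was -0.13.

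Around KMO, none of the 7 measured genes of the kynurenine pathway and tryptophan use passed with limma, and their median difference was 0.14. The 2 with the smallest p, chosen by that rule, were the aryl hydrocarbon receptor AHR, for which kynurenines are ligands (0.21, unadjusted p = 0.00788, adjusted p = 0.0737, with 2 other probe sets at -0.04 and 0.04), and the mitochondrial tryptophanyl-tRNA synthetase WARS2 (-0.26, unadjusted p = 0.0186, adjusted p = 0.120). At an unadjusted p under 0.05 there were 3 of the 7, the third being KYAT1, and 23.2% of all probe sets. KYNU, kynureninase, which competes with KMO for kynurenine and also acts on its product, read 4.01 to 5.39 in pregnant sows and 3.70 to 3.97 in 5 of those not pregnant, with sow 7 apart at 6.31 (difference 0.43, adjusted p = 0.579, with a second probe set at 0.08). IDO1, which forms the precursor of kynurenine from tryptophan, was not analysed here.

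Among transporters of cationic and neutral amino acids none of 9 measured genes passed with limma, and their median difference was 0.04. At an unadjusted p under 0.05 there was 1 of the 9, SLC7A9, and 23.2% of all probe sets. SLC7A1, a carrier of arginine, lysine and ornithine, differed by -0.08 ± 0.19 (SE, adjusted p = 0.864). SLC7A9, the light chain of a carrier of cystine and basic amino acids, differed by -0.93 (adjusted p = 0.144), and the neutral amino acid carrier SLC38A1 by -0.59 (adjusted p = 0.231).

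**Figure D3:**
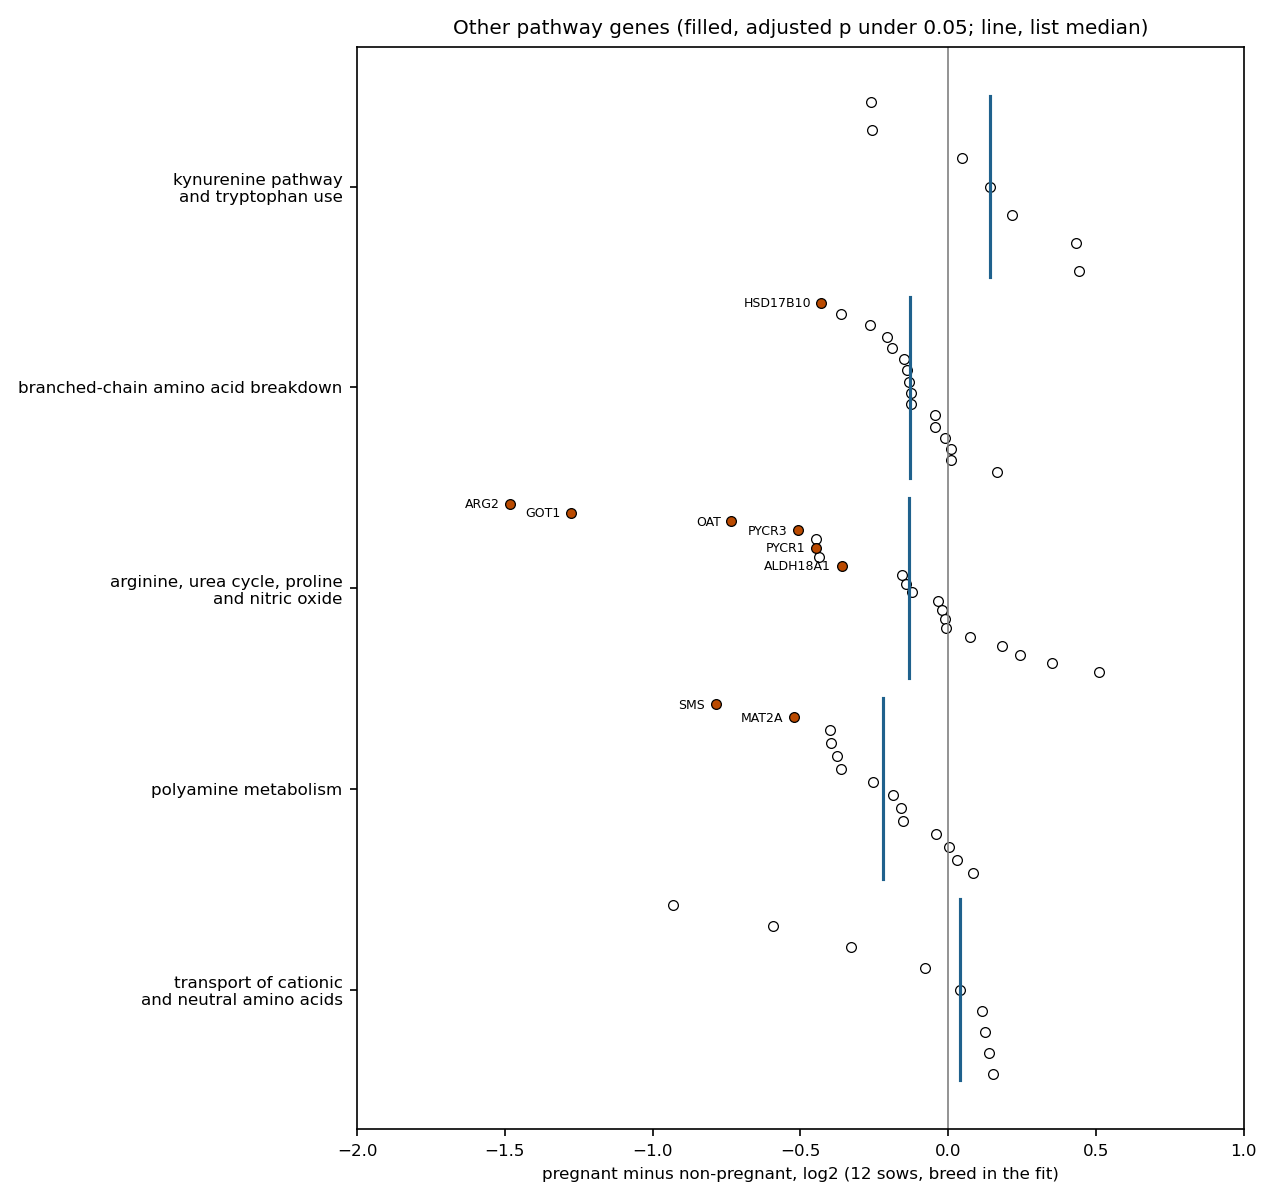
Pregnant minus non-pregnant log2 difference (horizontal axis) of each measured gene of the 5 lists, 12 sows with breed in the fit. Filled points passed an adjusted p of 0.05 and are named, open points did not, and the blue line is the list median. All 9 filled points lie left of 0, and 6 of them belong to the arginine, urea cycle, proline and nitric oxide list.

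The genes whose values over the 12 sows were most like those of each enzyme were found by Pearson's r among 4880 genes with a mean above the median of all values. Pregnancy, for which the enzymes were chosen, is part of these correlations, so r after subtraction of the 4 group means is given beside each as a description. ASS1 was followed most closely by SLC2A1, the glucose transporter GLUT1 (r = 0.98, and 0.94 after subtraction). SLC2A1 read 7.42 to 7.85 in non-pregnant Yorkshire, 8.44 to 9.14 in non-pregnant Landrace, 9.07 to 10.17 in pregnant Yorkshire and 9.93 to 11.23 in pregnant Landrace sows, the same order of groups as ASS1. PTHLH, a calcium-regulating peptide (0.94 and 0.87), and ENOPH1, an enzyme of methionine salvage (0.93 and 0.71), came next. ODC1 was followed by PSMB6, a catalytic subunit of the proteasome (0.98 and 0.89), by LOC100517372 (0.96 and 0.87) and by the spindle protein SKA2 (0.96 and 0.85).

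KMO was followed by the transcription factor IRF2 (r = 0.96, and 0.76 after subtraction of the group means), BTG1 (0.95 and 0.75) and the membrane mucin MUC4 (0.92 and 0.64). The 3 genes most like BCAT1 Ssc.12565.1.A1_at were MSMO1 (0.96 and 0.81), SQLE (0.96 and 0.50) and HSD17B7 (0.95 and 0.66), each of which encodes an enzyme of cholesterol synthesis. SQLE, with its lower value after subtraction, followed the group means more than the sows within a group.

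**Figure D4:**
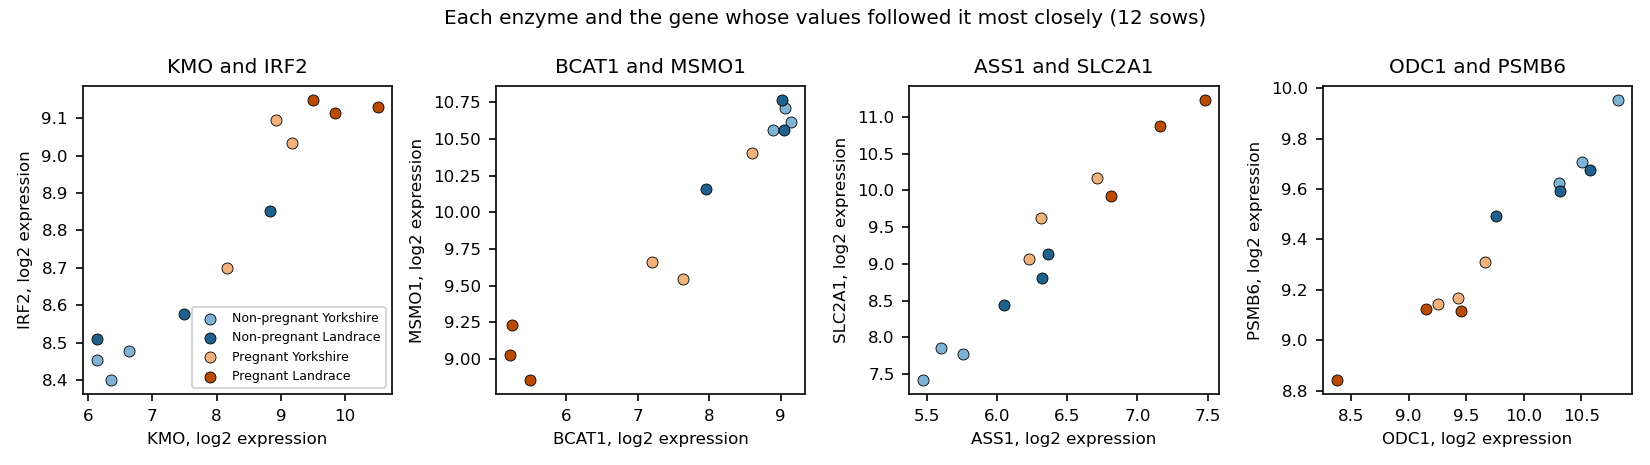
Log2 expression of each enzyme (horizontal axis, brightest probe set) against that of the gene with the highest r over the 12 sows (vertical axis). Each point is a sow, coloured by group. ASS1 and SLC2A1 lie along one line through all 4 groups (r = 0.98), whereas most non-pregnant sows form a tight cluster at the upper right for BCAT1 and MSMO1.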

How the data were processed

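Total RNA of the endometrium of 12 sows was hybridised to Affymetrix porcine arrays, 1 per sow. The deposited values are log2 expression per probe set, made by the authors with RMA (affy and limma are also named, without versions, per the submitters' processing notes). RMA subtracts background, equalises the distributions of the arrays and summarises probes, so a change in total RNA per sow is not visible and differences of dim genes are understated. The number of arrays limits the precision. Of 24123 probe sets 124 controls were left out. Gene symbols came from the platform annotation, and all 6 probe sets matched a RefSeq gene (Sscrofa11.1) of the same symbol. No coordinates or sequences are given, because the build of the design is not given in the sources used here.

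Tests used limma 3.58.1 in R 4.3.3 (lmFit, eBayes, two-sided, Benjamini-Hochberg over 23999 probe sets): an additive fit of pregnancy and breed (9 residual degrees of freedom) and a fit of 4 groups (8). The procedure was tested on simulated data. Named genes were the 6 probe sets, every called gene of the 5 lists (the 2 with the smallest p where none was called), a fixed set of regulators, and the 3 genes most like each enzyme. Alternatives were cyclic loess, median centring, leaving out dim probe sets, a trended robust prior, array weights, no second factor, another probe set per gene and leaving out each sow. The enzymes, lists and tests were chosen with earlier results of these data known. Sows are separate animals per the labels.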

Additional observations from a re-analysis of the deposited data

Results flagged for a closer look

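In 7 of 60 groups of 6 sows examined, 1 sow lay far from the others by Dixon's ratio, which chance gives in about 1 independent group in 20. Most of the 7 were due to sow 7, and the BCAT1 probe sets read 1 gene. The groups are thus not independent, and the 7 cannot be set strictly against that rate. Of the BCAT1 probe sets, Ssc.12565.1.A1_at read 7.96 in non-pregnant sow 7 and 8.89 to 9.15 in its 5 group mates, and Ssc.27431.1.A1_at read 7.54 there and 8.53 to 8.93 in the same mates. Sow 7 also stood apart for KYNU, at 6.31 beside 3.70 to 3.97, for ARG1, at 5.92 beside 2.87 to 3.12, and for the transporter SLC7A9, at 5.89 beside 8.10 to 8.82. Among pregnant sows, GOT1 read 9.64 in sow 12 and 7.66 to 8.25 in the remaining 5, and SRM read 6.65 in sow 10 and 5.65 to 5.88 in the remaining 5.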

How the results depend on the processing

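No paired analysis was possible because the labels give each sow a number of its own, shared by no other sow. Array number and dim signal limit the precision. With array weights 3640 probe sets passed for pregnancy, 2 for the interaction, and of the pathway genes 14 fell and 1 rose. With no second factor 1165 passed for pregnancy and 786 for breed. Without sows 7 and 12, left out together after the data were seen, 3213 passed for pregnancy, 800 for breed and 29 for the interaction, and 15 pathway genes fell and 1 rose. Leaving out 1 sow at a time gave 951 to 2626 for pregnancy, 820 to 1342 for breed, 0 to 18 for the interaction, 5 to 10 pathway falls and 0 to 1 rises, against 1892, 1236, 0, 9 and 0 over all 12.

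The breed difference of BCAT1 Ssc.27431.1.A1_at lost its call with a trended robust prior (-1.47, limma adjusted p = 0.0553), array weights (-1.25, 0.0566), no pregnancy term (-1.47, 0.301) and without sows 7 and 12 (-1.09, 0.113), and ranged from -1.67 to -1.20 over the fits without 1 sow. That of Ssc.12565.1.A1_at passed with dim probe sets left out (-1.42, 0.0421) and ranged from -1.62 to -1.13. In pregnant sows these probe sets ranged from -2.61 to -1.95 and from -2.79 to -2.09. KMO ranged from 0.857 to 1.45. ASS1 lost its call only without the pregnancy term (0.68, 0.210). The interaction of BCAT1 Ssc.12565.1.A1_at passed only without sows 7 and 12 (-2.09, 0.0112). The causes were not tested. Cyclic loess and median centring changed no breed or interaction call of the 4 enzymes.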
